A study of Xenopus laevis with 6 samples.

Results

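The ventx genes of Xenopus laevis, the African clawed frog, were followed through the blastula stage in embryos with and without an inhibitor of protein synthesis. All genes whose name starts with ventx were taken, which gave 10 genes among the 50489 in the table. They are the L and S copies of ventx1.1, ventx1.2, ventx2.1, ventx2.2 and ventx3.2, and all 10 passed the filter on low values. L and S mark the copies on the longer and the shorter chromosome of each pair that this allotetraploid species inherited. Wild-type embryos received 5-ethynyl uridine (EU), a uridine analogue built into new RNA, at the 1-cell stage, and labelled RNA was captured from total RNA of whole embryos and sequenced. Each of the 3 groups holds 2 libraries: embryos exposed to the translation inhibitor cycloheximide (CHX) at 0.2 mg/ml between 5 and 7.5 hours post fertilization (hpf) and collected at 7.5 hpf, untreated controls at 7.5 hpf, and untreated controls at 5 hpf. The embryos of all groups carried EU and came from 1 clutch, so every p-value here measures the spread between these libraries and not between clutches. Because the label was given at the start, RNA captured at 7.5 hpf includes any made earlier and still present.

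Ventx proteins are homeodomain transcription factors of the ventral side of the frog embryo. Bone morphogenetic protein (BMP) ligands bind receptor kinases that phosphorylate Smad1, Smad5 and Smad9, and these enter the nucleus with Smad4 and activate target genes, among them ventx genes. In Xenopus the ventx1 type (Xvent-1 or PV.1) and the ventx2 type (Xvent-2, Vox or Xom) are known as repressors of dorsal organizer genes such as goosecoid and chordin, and genes of this family have also been linked to the maintenance of uncommitted blastula cells. No role is given here for ventx3.2.

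Values are the authors' normalized gene values, deposited as whole numbers. Library totals ranged over 6680033 to 7742693. In the controls at 5 hpf 1 read was worth an estimated 1.85 and 2.31 units, so a ventx value at that time stood for between 0 and 48.7 estimated reads. Embryos of the labelled stage were checked with genes of early zygotic germ layers and with oocyte transcripts. Of 13 germ-layer genes tested, 10 were higher in controls at 7.5 hpf than in controls at 5 hpf (5.70% of all genes tested were). Of 16 oocyte transcripts tested, 0 were higher and 2 were lower (0.659% of all genes tested were lower). The oocyte transcript h1-8.S had values of 2482 and 2557 in CHX embryos and 2666 and 2669 in controls at 7.5 hpf. In controls at 5 hpf it had 2503 and 2900. RNA made before the label was given carries none, so the values may include unlabelled RNA. This was not tested. The germ-layer count lay between 7 and 10, and the oocyte count of lower genes between 0 and 2, when each library was left out in turn.

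All 10 ventx genes had higher values in each library at 7.5 hpf, with or without CHX, than in either control library at 5 hpf. Across the family the values spanned 170 to 4548 in CHX replicate 1, 76 to 3054 in CHX replicate 2, 329 to 5040 in control 7.5 hpf replicate 1 and 135 to 2132 in control 7.5 hpf replicate 2, against 0 to 90 and 0 to 79 in the 5 hpf controls. Summed over the 10 genes, the value was 17418 and 11178 in CHX embryos, 17993 and 7460 in controls at 7.5 hpf, and 197 and 167 in controls at 5 hpf. The sum made up 0.240% and 0.158% of the library value in CHX embryos, 0.232% and 0.105% in controls at 7.5 hpf, and 0.00295% and 0.00246% in controls at 5 hpf. In whole embryos, more cells making an RNA and more RNA per cell cannot be told apart.

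**Figure D1:**
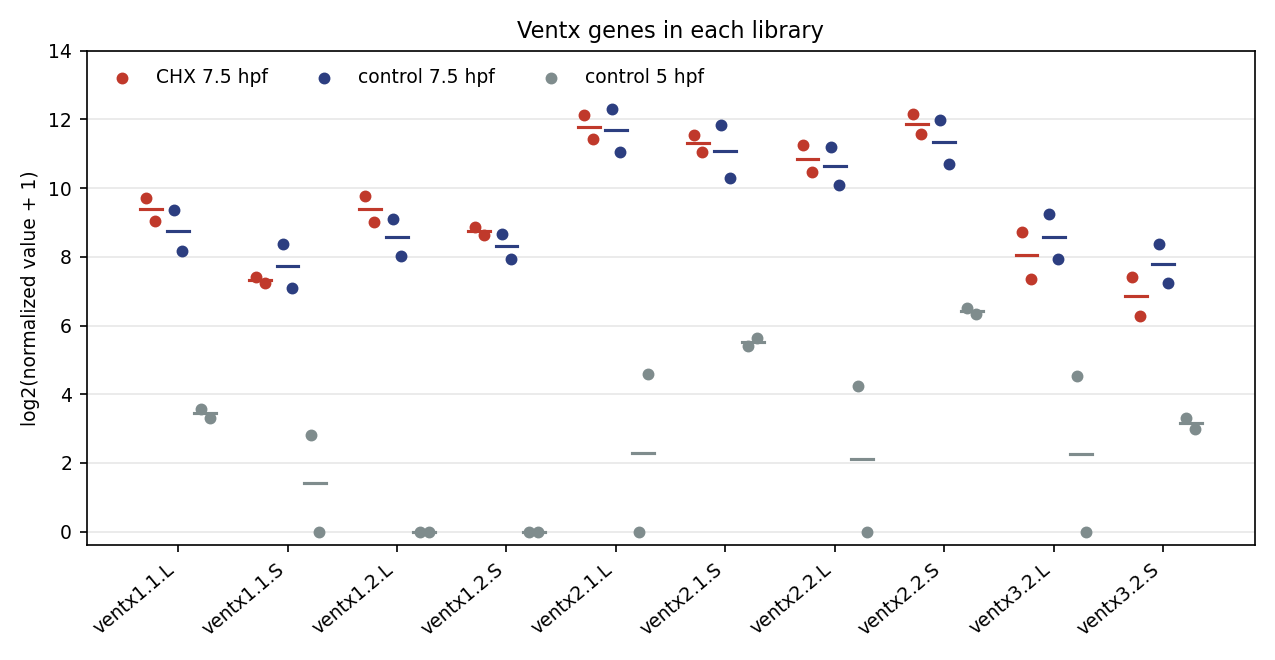
Value of each ventx gene in each of the 6 libraries, as log2 of the normalized value plus 1 (vertical axis); points are libraries and bars the group means. The 5 hpf points lie below all 7.5 hpf points of the same gene, while the CHX and control points at 7.5 hpf overlap for every gene.

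Of the ventx1 type, ventx1.1.L had values of 839 and 530 in CHX embryos, 654 and 288 in controls at 7.5 hpf, and 11 and 9 in controls at 5 hpf. Its S copy, ventx1.1.S, had 170 and 149 in CHX embryos, 332 and 135 in controls at 7.5 hpf, and 6 and 0 in controls at 5 hpf. The CHX range lay inside the control range for ventx1.1.S and overlapped the upper part of it for ventx1.1.L. Both copies of ventx1.2 were listed at 0 in both 5 hpf libraries, so no fold change against that time is given for them. The L copy, ventx1.2.L, had 868 and 513 in CHX embryos and 549 and 262 in controls at 7.5 hpf. For ventx1.2.S the values were 470 and 393 in CHX embryos and 405 and 246 in controls at 7.5 hpf. In both ventx1.2 copies the higher library of CHX was above, and the lower one within, the control range at 7.5 hpf.

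Of the ventx2 type, ventx2.1.L had 4520 and 2740 in CHX embryos, 5040 and 2132 in controls at 7.5 hpf, and 0 and 23 in controls at 5 hpf. The values of ventx2.1.S were 2983 and 2140 in CHX embryos, 3680 and 1253 in controls at 7.5 hpf, and 41 and 49 in controls at 5 hpf. For both ventx2.1 copies the CHX libraries lay between the control libraries of the same age. ventx2.2.L had 2424 and 1420 in CHX embryos, 2368 and 1095 in controls at 7.5 hpf, and 18 and 0 in controls at 5 hpf. ventx2.2.S, with 4548 and 3054 in CHX embryos and 4034 and 1656 in controls at 7.5 hpf, was the ventx gene with the highest 5 hpf values, 90 and 79. The CHX and 7.5 hpf control values overlapped for both ventx2.2 copies.

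Both ventx3.2 copies had a mean in CHX embryos below that in controls at 7.5 hpf. ventx3.2.L had 425 and 163 in CHX embryos, 602 and 243 in controls at 7.5 hpf, and 22 and 0 in controls at 5 hpf. ventx3.2.S had 171 and 76 in CHX embryos, 329 and 150 in controls at 7.5 hpf, and 9 and 7 in controls at 5 hpf. In each copy the lower CHX library was below both 7.5 hpf controls and the higher one was between them.

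The first comparison asked which ventx RNAs accumulated in untreated embryos over the interval. All 10 ventx genes rose in controls at 7.5 hpf relative to controls at 5 hpf (limma, adjusted p between 1e-05 and 0.0075). The lowest adjusted p was that of ventx1.2.L, which was listed at 0 in both 5 hpf libraries. A gene is called here at an adjusted p under 0.05, and 5.70% of the 19738 genes tested were called higher. None of the 10 overlapped between the groups, and 25.6% of the genes tested were higher without overlap. On the log2(value + 1) scale the median change of the 8 genes not listed at 0 in both 5 hpf libraries was 5.94, against 0.03 over all genes tested. These 8 include 4 genes at 0 in 1 of the 5 hpf libraries, whose change was poorly determined. Of the 4 genes detected in both 5 hpf libraries, ventx2.2.S was 30.3-fold higher, a log2 change of 4.92 ± 0.34 (SE, n = 2 libraries a group; limma adjusted p = 1.7e-05). ventx2.1.S was 46.9-fold higher (5.55 ± 0.39, adjusted p = 1.7e-05), and ventx1.1.L was 39.7-fold higher (5.31 ± 0.42, adjusted p = 3.1e-05). For ventx3.2.S the change was 25-fold (4.64 ± 0.60, limma adjusted p = 0.00081). The fold depended on the control library at 7.5 hpf: without replicate 1 and without replicate 2 the log2 change was 4.28 and 5.56 for ventx2.2.S, 4.77 and 6.33 for ventx2.1.S, and 4.72 and 5.90 for ventx1.1.L.

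The size of the rise was poorly determined for the 4 genes listed at 0 in 1 of the 5 hpf libraries. The log2 change in controls was 9.39 ± 1.07 for ventx2.1.L (limma adjusted p = 0.00036) and 8.53 ± 1.00 for ventx2.2.L (0.00045), and it moved with the number added before taking logs, to 9.90 and 9.05 with 0.5 and to 8.12 and 7.24 with 5. For ventx1.1.S it was 6.33 ± 0.88 (limma adjusted p = 0.0013) and for ventx3.2.L 6.32 ± 1.15 (0.0075). Without the 5 hpf library that was at 0, which was replicate 1 for ventx2.1.L and replicate 2 for the other 3, the log2 change in controls was 7.09 for ventx2.1.L, 6.41 for ventx2.2.L, 4.93 for ventx1.1.S and 4.06 for ventx3.2.L, and all 4 were still called. The call of ventx3.2.L was lost without control 7.5 hpf replicate 1 (limma adjusted p = 0.152), without control 7.5 hpf replicate 2 (0.0636), without CHX replicate 1 (0.0543) and without CHX replicate 2 (0.0908), and that of ventx1.1.S without control 7.5 hpf replicate 1 (0.0561). Fitting the 2 control groups alone called 8 of the 10, and 416 of the 19738 genes tested, with limma adjusted p of 0.0606 for ventx1.1.S and 0.11 for ventx3.2.L.

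The second comparison asked which ventx RNAs were above the 5 hpf level when embryos had been exposed to CHX in between. In CHX embryos all 10 ventx genes were again higher than in controls at 5 hpf (limma, adjusted p of at most 0.013), against 5.61% of genes tested, and none overlapped between groups, against 26.8% higher without overlap. This comparison uses the same 5 hpf libraries as the first. The log2 change in CHX embryos was 5.45 ± 0.34 for ventx2.2.S (43.7-fold, limma adjusted p = 9.3e-06), 5.79 ± 0.39 for ventx2.1.S (55.2-fold, 1.4e-05) and 5.93 ± 0.42 for ventx1.1.L (61.0-fold, 1.9e-05). ventx3.2.S had the smallest change of the 8 genes for which one is given, 12.9-fold (3.69 ± 0.60, limma adjusted p = 0.0035). The median over these 8 was 5.85, against 0.03 over all genes. Fitting these 2 groups alone called 9 of the 10, and 1319 of the 19738 genes tested, with a limma adjusted p of 0.07 for ventx3.2.L. For the genes at 0 in 1 library of 5 hpf, the log2 change in CHX embryos without that library was 7.2 for ventx2.1.L, 6.61 for ventx2.2.L, 4.52 for ventx1.1.S and 3.52 for ventx3.2.L.

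The count of 10 in CHX embryos rested on both CHX libraries. Without CHX replicate 1 it was 6, the calls of ventx1.1.S (limma adjusted p = 0.117), ventx2.2.L (0.0518), ventx3.2.L (0.341) and ventx3.2.S (0.18) being lost. Without CHX replicate 2 it was 5, with ventx1.1.S at an adjusted p of 0.119, ventx2.1.L at 0.0576, ventx2.2.L at 0.0581, ventx3.2.L at 0.183 and ventx3.2.S at 0.0599. ventx3.2.L was also not called without control 7.5 hpf replicate 2 (limma adjusted p = 0.0804). In these fits the lone CHX library is assumed to vary like the other groups. The 5 genes called in CHX embryos whichever library was left out were ventx1.1.L, ventx1.2.L, ventx1.2.S, ventx2.1.S and ventx2.2.S.

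The third comparison set CHX embryos against untreated embryos of the same age. No ventx gene was called between CHX and control embryos at 7.5 hpf, by limma over the 3 groups or over these 2 groups alone. An unadjusted p under 0.05 was found for 0 of 10 in either fit. Over the 3 groups 1626 of the 19738 genes tested had one, so no conclusion is drawn from the 0 of 10. Across all genes tested, 0.532% were called in either direction, 0.193% as higher in CHX embryos and 0.339% as lower. All 10 overlapped between the groups, where 19.6% of genes tested were higher and 18.0% lower in CHX embryos without overlap. The estimate was above 0 for 7 genes and below 0 for 3, with a median log2 change of 0.22, against 0.02 over all genes.

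**Figure D2:**
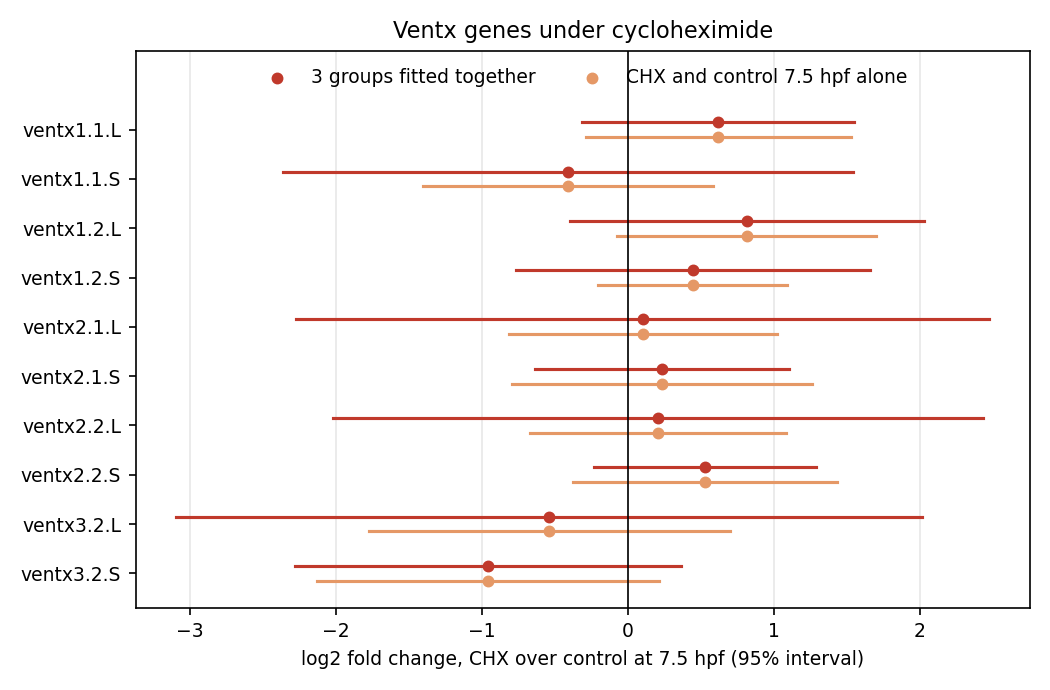
Log2 fold change of each ventx gene in CHX embryos over controls at 7.5 hpf (horizontal axis) with its 95% interval, from the fit of 3 groups (dark) and of these 2 groups alone (light). Every interval includes 0. The lowest end is -3.09, for ventx3.2.L, and the highest is 2.47, for ventx2.1.L, both from the fit of 3 groups.

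The intervals leave room for changes in both directions. The estimate farthest above 0 was that of ventx1.2.L, whose mean in CHX embryos was 170% of the control mean at 7.5 hpf (690.5 ± 251 and 405.5 ± 203, SD, n = 2 each). Its log2 change was 0.81, with a 95% interval of -0.40 to 2.02 over the 3 groups and of -0.07 to 1.70 over the 2 groups alone. The estimate farthest below 0 was that of ventx3.2.S, at 51.6% of the control mean (123.5 ± 67.2 and 239.5 ± 127), with a log2 change of -0.96 and an interval of -2.28 to 0.37. The member with the smallest standard error over the 3 groups, ventx2.2.S, was at 134% of the control mean, with a log2 change of 0.53 and an interval of -0.23 to 1.28. Over the 2 groups alone the smallest standard error was that of ventx1.2.S, with a log2 change of 0.44 and an interval of -0.20 to 1.09. For ventx2.1.S the mean was 104% of the control mean and the interval ran from -0.64 to 1.11. The widest intervals, at -2.27 to 2.47 for ventx2.1.L, -2.02 to 2.43 for ventx2.2.L and -3.09 to 2.02 for ventx3.2.L, were those of genes with 1 value of 0 at 5 hpf. With the 2 groups of 7.5 hpf alone they narrowed to -0.82 to 1.02, -0.67 to 1.08 and -1.77 to 0.70.

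Ventx values also differed between the replicate libraries of each 7.5 hpf group, and in the same direction for every member. Control 7.5 hpf replicate 1 was above replicate 2 for all 10 genes, by 1.65-fold for ventx1.2.S at the least and 2.94-fold for ventx2.1.S at the most. The median log2 difference between these libraries was 1.21 over the 10 ventx genes, 0.99 over the other 1116 genes called higher in controls at 7.5 hpf, and 0.03 over all genes tested. CHX replicate 1 was likewise above CHX replicate 2 for all 10, with a median log2 difference of 0.69 over ventx genes, 0.47 over the other 1116 genes and 0.04 over all genes tested. The median log2 change of the family between CHX and control embryos therefore depended on which control was kept. It was -0.43 without control 7.5 hpf replicate 2 and 0.78 without control 7.5 hpf replicate 1. The part of this replicate difference in the comparison was not tested.

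Since the L and S copies of a gene can share reads, the 5 pairs were also summed before the fit, a choice made after seeing the data. All 5 pairs were higher in both 7.5 hpf groups than at 5 hpf (limma, adjusted p of at most 0.0023), where 6.53% of 14672 summed genes were called higher in controls and 5.73% in CHX embryos. The summed value of ventx2.1 was 7503 and 4880 in CHX embryos, 8720 and 3385 in controls at 7.5 hpf, and 41 and 72 in controls at 5 hpf. This was 109-fold higher in CHX embryos and 98.1-fold higher in controls at 7.5 hpf than at 5 hpf. For ventx1.1 the folds over 5 hpf were 61.8 in CHX embryos and 48.2 in controls at 7.5 hpf, for ventx2.2 they were 59.8 and 45.0, and for ventx3.2 they were 23.7 and 37.9. Summed ventx1.2 was listed at 0 in both 5 hpf libraries and had 1338 and 906 in CHX embryos and 954 and 508 in controls at 7.5 hpf. Between CHX and control embryos at 7.5 hpf 0 of the 5 pairs were called (0.702% of summed genes were), and the log2 estimate farthest from 0 was -0.68 for ventx3.2, with an interval of -2.17 to 0.81.

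The ratio of the L to the S copy within a library was tested over 4873 such pairs of the table. It was called for 0 of the 5 ventx pairs in each of the 3 comparisons (limma). Of all pairs, 0.00% were called between CHX and control embryos at 7.5 hpf, 0.349% between controls at 7.5 and 5 hpf, and 0.657% between CHX embryos and controls at 5 hpf. Both ventx1.2 copies were at 0 in both 5 hpf libraries, so their ratio at that time was set by the number added before taking logs. The tests of ventx1.2 against 5 hpf therefore cannot show whether its ratio changed. Unadjusted p was under 0.05 for 0 ventx pairs between CHX and control embryos at 7.5 hpf, and for 5.46% of all pairs. Between the controls this held for 2 ventx pairs and for 10.3% of all pairs. The 2 were ventx2.1 and ventx2.2, each with an L copy at 0 in 1 library at 5 hpf. Between CHX embryos and controls at 5 hpf it held for 1 ventx pair, ventx2.1, and for 8.64% of all pairs. The ventx1.1 pair had the widest gap between the 7.5 hpf groups, with log2 ratios of 2.30 and 1.82 in CHX embryos and 0.98 and 1.09 in controls. Over the 3 groups this difference of 1.03 ± 0.86 (SE) had a limma adjusted p of 0.9. With these 2 groups alone, an alternative added after seeing the data, the standard error was 0.31, the unadjusted p was 0.0303 and the adjusted p was 0.84, while 5.64% of all pairs had an unadjusted p under 0.05.

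The composition of the ventx signal was described by the share of each gene in the summed ventx value of its library, which removes the replicate difference that all members share. This measure was chosen after the values were seen, shares of 1 sum depend on each other, and with 2 libraries a group an exact two-sided permutation test cannot go below 0.333. 3 genes had higher shares in CHX embryos than in controls at 7.5 hpf with no overlap, and 4 had lower shares. Divided by the same ventx sum, 5.39% of all genes tested were higher and 13.9% lower with no overlap. These 2 shares are not a like background, because the division adds the replicate difference of the ventx sum to genes that lack it. Undivided, 19.6% of genes tested were higher and 18.0% lower in CHX embryos with no overlap. No conclusion on the family is drawn from the counts of 3 and 4. Among those higher in CHX embryos, ventx1.2.L held 4.98% and 4.59% of the sum in CHX embryos and 3.05% and 3.51% in controls at 7.5 hpf. ventx2.2.S held 26.1% and 27.3% in CHX embryos and 22.4% and 22.2% in controls, and ventx1.1.L was the third such gene. Among those lower, ventx3.2.S held 0.982% and 0.68% in CHX embryos and 1.83% and 2.01% in controls at 7.5 hpf. ventx3.2.L held 2.44% and 1.46% in CHX embryos and 3.35% and 3.26% in controls, and ventx1.1.S held 0.976% and 1.33% in CHX embryos and 1.84% and 1.81% in controls. The other gene with a lower share was ventx2.1.L, with 25.95% and 24.5% in CHX embryos and 28.0% and 28.6% in controls. The shares of ventx1.2.S, ventx2.1.S and ventx2.2.L overlapped. Both ventx3.2 copies thus had lower shares in CHX embryos, while the ventx1.1 copies differed in opposite directions.

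**Figure D3:**
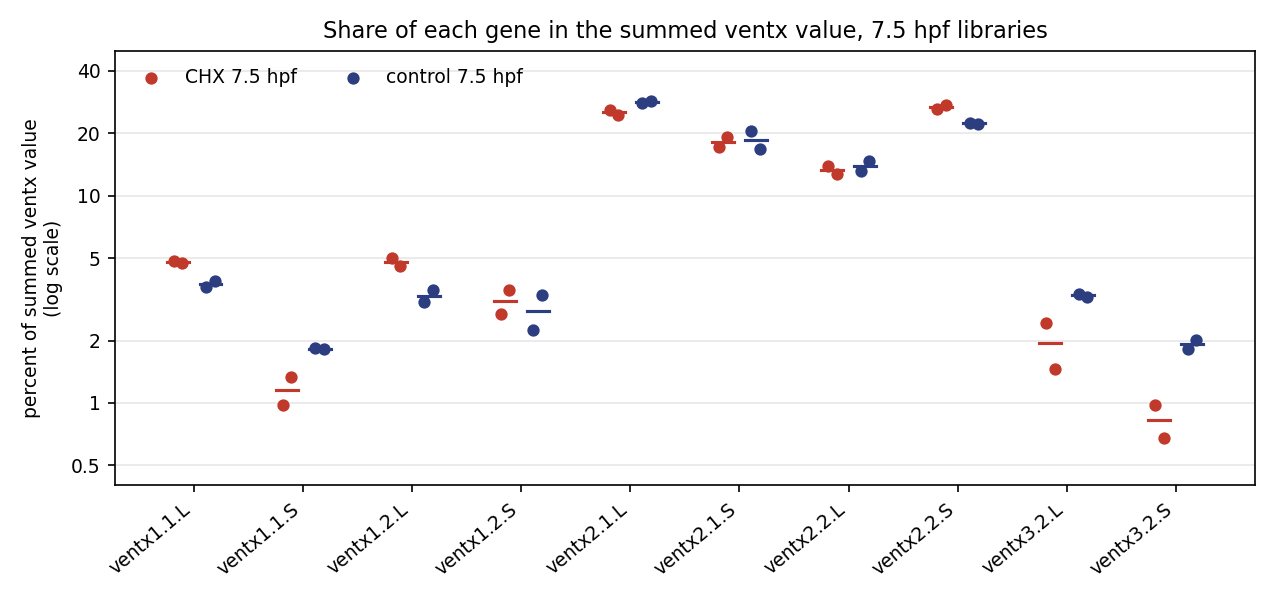
Share of each ventx gene in the summed ventx value of its library (vertical axis, percent, log scale) for the CHX and control libraries at 7.5 hpf; points are libraries and bars are group means. The ventx3.2 copies, ventx1.1.S and ventx2.1.L lie lower in CHX embryos, and ventx1.1.L, ventx1.2.L and ventx2.2.S lie higher.

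The ventx genes are neighbours. In the RefSeq gene order of assembly Xenopus_laevis_v10.1, used here for names and order only, the 5 genes stand in the order ventx3.2, ventx1.2, ventx2.2, ventx1.1, ventx2.1 on both the L and the S copy, with 1 further gene, LOC108697184 (values of 0 to 5), between ventx1.2.S and ventx2.2.S. The gene beside ventx3.2.L, XB5817455.L, had values of 429 and 348 in CHX embryos, 995 and 429 in controls at 7.5 hpf, and 231 and 203 in controls at 5 hpf, a log2 change of 1.59 in controls (limma adjusted p = 0.0166). Its S counterpart, XB5817455.S, with 60 and 69 in CHX embryos, 79 and 47 in controls at 7.5 hpf, and 85 and 60 in controls at 5 hpf, was not called (limma adjusted p = 0.847). On the other side of the cluster kndc1.L was not called in controls either, with 151 and 126 in CHX embryos, 85 and 179 in controls at 7.5 hpf, and 172 and 245 in controls at 5 hpf. The next gene on the S copy, adgra1.S, was listed at 0 in all 6 libraries. Of these flanking genes XB5817455.L was the one called, with a smaller change than any ventx gene. Its call was lost when any library other than control 7.5 hpf replicate 2 was left out (limma adjusted p between 0.0795 and 0.126), with a log2 change of 0.98 without control 7.5 hpf replicate 1.

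The genes of the pathway that acts on ventx were taken as lists. Of all genes tested, 5.70% were called higher in controls at 7.5 hpf, and 5.61% in CHX embryos, than in controls at 5 hpf. Between CHX and control embryos at 7.5 hpf, 0.193% were called higher and 0.339% lower. The counts of every list below are to be read beside these shares. In each list, genes near 0 at 5 hpf could pass the filter through their 7.5 hpf values, since it used the mean over all 6 libraries. Of 10 BMP ligand genes tested, 6 rose in controls at 7.5 hpf over 5 hpf, 5 were higher in CHX embryos than at 5 hpf, and 0 were called between CHX and control embryos at 7.5 hpf, where the median log2 change was 0.15. Leaving out control 7.5 hpf replicate 1 gave 0.57 and leaving out its replicate 2 gave -0.43, while leaving out CHX replicate 1 gave -0.05 and CHX replicate 2 gave 0.40. The ligand gene bmp4.S had values of 488 and 347 in CHX embryos, 492 and 232 in controls at 7.5 hpf, and 30 in both 5 hpf libraries. Its log2 change over 5 hpf was 3.73 ± 0.38 in CHX embryos (limma adjusted p = 0.00017) and 3.45 ± 0.38 in controls (0.00028). The gene admp.S, which encodes a BMP-like ligand made on the dorsal side, had 63 and 68 in CHX embryos and 239 and 71 in controls at 7.5 hpf, was not called between them (limma adjusted p = 0.8) and was listed at 0 at 5 hpf. The ligand count in CHX embryos over 5 hpf was 1 without CHX replicate 1 and 1 without CHX replicate 2, and that in controls was 2 without CHX replicate 2 and 3 without control 7.5 hpf replicate 1.

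Of 22 receptor and Smad genes tested, smad4.1.L was called higher and smad4.1.S lower in controls at 7.5 hpf than at 5 hpf (5.70% of all genes were called higher and 0.659% lower), smad4.1.S was called lower in CHX embryos than at 5 hpf (0.248% of all genes were), and 0 were called between CHX and control embryos of the same age. smad4.1.S, a copy of the common partner Smad4, had 2173 and 3156 in CHX embryos, 2087 and 1864 in controls at 7.5 hpf, and 8557 and 6096 in controls at 5 hpf, a log2 change of -1.46 ± 0.20 in CHX embryos (limma adjusted p = 0.0013) and -1.87 ± 0.20 in controls (0.00026). Its call in CHX embryos was lost without CHX replicate 1 (limma adjusted p = 0.0747). The deposited table has more than 1 row for smad1.S, smad4.2.L and smad4.2.S. The same holds for foxd3.S and sox2.L of a later list and for gdf1.L of the oocyte transcripts above. Each row that passed the filter was counted as a gene. The call of smad4.1.L was lost in 5 of the 6 fits that left out 1 library (adjusted p of up to 0.163). Of 13 genes that feed back on BMP signalling, bambi.L, a pseudoreceptor, was called higher and smad7.L, an inhibitory Smad, lower in controls at 7.5 hpf, with adjusted p of up to 0.166 and 0.203 when a library was left out. In CHX embryos szl.L, szl.S and bambi.L were called higher than at 5 hpf, a count of 3 that was 0 without CHX replicate 1 and 1 without CHX replicate 2. The gene szl.S, which encodes sizzled, an inhibitor of chordin-cleaving proteases, had 386 and 339 in CHX embryos, 94 and 128 in controls at 7.5 hpf, and 50 and 12 in controls at 5 hpf. It was not called between the 7.5 hpf groups (limma adjusted p = 0.42), and its call against 5 hpf was lost without CHX replicate 1 (0.127) and without CHX replicate 2 (0.121), as was that of szl.L (0.174 and 0.106).

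Other transcription factor genes known as BMP targets or as genes of the ventral and epidermal programme formed a further list, called BMP target factors below. The list also holds both copies of wnt8a, which encodes a secreted ligand and not a transcription factor. Of 26 tested, 13 rose in controls at 7.5 hpf over 5 hpf, 24 were higher in CHX embryos than at 5 hpf, and 6 were called higher in CHX than in control embryos at 7.5 hpf. The median log2 change between CHX and control embryos was 1.54 over the 24 of these genes with a value above 0 in controls at 7.5 hpf, beside 0.22 over the 10 ventx genes. Over the same 24 genes it was 2.29 without control 7.5 hpf replicate 1 and 1.01 without control 7.5 hpf replicate 2. The filter used the mean over all 6 libraries, so genes near 0 in controls could enter through their CHX values alone. An example is gata3.S, with 108 and 53 in CHX embryos and 0 and 4 in controls at 7.5 hpf. The counts and medians of this list in CHX embryos are therefore partly set by the filter, and 1.54 and 0.22 are not a like comparison. The BMP-induced inhibitor of differentiation id3.L had 2124 and 1410 in CHX embryos and 1301 and 525 in controls at 7.5 hpf, and the epidermal factor grhl3.L had 1449 and 1059 in CHX embryos and 671 and 244 in controls. Both were listed at 0 at 5 hpf, and neither was called between the 7.5 hpf groups. The most abundant gene of the list, id2.S, had 7379 and 6020 in CHX embryos and 8952 and 5234 in controls at 7.5 hpf (log2 change -0.04). The log2 change between these groups was also below 0 for wnt8a.L (-0.77) and wnt8a.S (-1.30). Neither id2.S nor a wnt8a copy was called between them. The homeobox gene dlx6.S had 577 and 636 in CHX embryos and 43 and 21 in controls at 7.5 hpf (log2 change 4.29 ± 0.59, limma adjusted p = 0.016). The ectodermal factor foxi1.S had 1169 and 953 in CHX embryos and 59 and 34 in controls (4.53 ± 0.65, limma adjusted p = 0.016). The other copy, foxi1.L, had 770 and 410 in CHX embryos and 563 and 118 in controls and was not called (1.12 ± 0.79, limma adjusted p = 0.74). The other copy of dlx6, dlx6.L, had 575 and 533 in CHX embryos and 22 and 20 in controls and was called (4.66 ± 0.79, limma adjusted p = 0.033). msx1.L, another BMP-induced homeobox gene, had 637 and 418 in CHX embryos and was listed at 0 in both control groups. The calls of dlx6.S and foxi1.S were lost when any of the 4 libraries of 7.5 hpf was left out (limma adjusted p between 0.061 and 0.905), and without either CHX library no gene of the whole table was called. The count of 6 was 1 without control 7.5 hpf replicate 1 and 1 without control 7.5 hpf replicate 2. The count of 24 in CHX embryos over 5 hpf was 11 without CHX replicate 1 and 9 without CHX replicate 2.

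**Figure D4:**
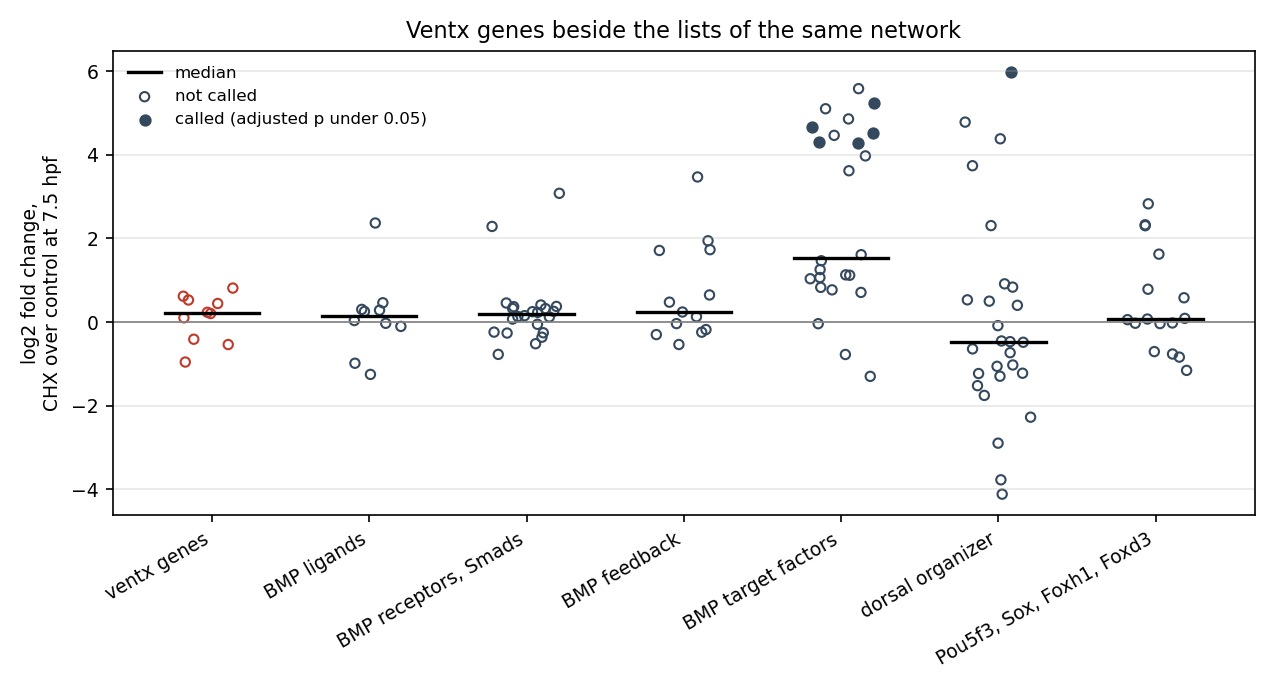
Log2 fold change in CHX embryos over controls at 7.5 hpf (vertical axis) for the ventx genes and for each pathway list; each point is a gene, filled where it was called, and bars are medians. 2 BMP target factors listed at 0 in both controls at 7.5 hpf are not drawn. Other genes near 0 in controls could pass the filter through their CHX values alone. The ventx genes lie between -0.96 and 0.81.

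A further list held 27 genes of the dorsal organizer, the programme that ventx proteins are known to repress. Of these, 21 rose in controls at 7.5 hpf over 5 hpf and 22 were higher in CHX embryos than at 5 hpf. All 27 passed the filter, and 15 were listed at 0 in both 5 hpf libraries. Some passed through their CHX values, such as fst.L, with 143 and 41 in CHX embryos and 0 and 7 in controls at 7.5 hpf. With no filter on low values, 14 were called in controls and 15 in CHX embryos. Both counts of these 27 genes thus depended on the filter. Between the 7.5 hpf groups 1 was called, otx2.S, with 810 and 551 in CHX embryos and 15 and 6 in controls, and its call was lost when any of the 4 libraries of 7.5 hpf was left out (limma adjusted p between 0.101 and 0.961). The median log2 change between CHX and control embryos was -0.48. Over the same 27 genes leaving out control 7.5 hpf replicate 1 gave -0.04 (0.02 over the 26 that then passed the filter) and leaving out its replicate 2 gave -1.50, while leaving out CHX replicate 1 gave -0.92 and CHX replicate 2 gave -0.15. The BMP antagonist chordin, as chrd.1.S, had 268 and 198 in CHX embryos and 904 and 355 in controls at 7.5 hpf, and the forkhead gene foxa4.L had 454 and 241 in CHX embryos and 1449 and 417 in controls. Neither was called between these groups, with log2 changes of -1.29 and -1.23. The other copies had larger drops that were not called either. chrd.1.L had 47 and 39 in CHX embryos and 555 and 190 in controls at 7.5 hpf (-2.89, limma adjusted p = 0.29). foxa4.S had 184 and 104 in CHX embryos and 1179 and 384 in controls (-2.27, limma adjusted p = 0.39). The notochord homeobox gene not.S had 2655 and 1656 in CHX embryos, 2344 and 937 in controls at 7.5 hpf, and 37 and 51 in controls at 5 hpf. It overlapped between the 7.5 hpf groups like the ventx genes. The other copy, not.L, had 3080 and 2376 in CHX embryos and 1993 and 1033 in controls at 7.5 hpf (log2 change 0.91) and was not called between them. The organizer counts lay between 9 and 21 in CHX embryos and between 12 and 19 in controls when each library was left out, with 9 without CHX replicate 1, 10 without CHX replicate 2, 12 without control 7.5 hpf replicate 1 and 13 in controls without either CHX library.

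Of 16 Pou5f3, Sox, Foxh1 and Foxd3 genes, factors of uncommitted blastula cells, 10 rose in controls at 7.5 hpf over 5 hpf, 12 were higher in CHX embryos than at 5 hpf and 0 were called between the 7.5 hpf groups, with a median log2 change of 0.07 that lay between 0.07 and 0.37 with 1 library of 7.5 hpf left out, the highest being without control 7.5 hpf replicate 1. The Foxh1 gene foxh1.2.L had 1722 and 1285 in CHX embryos, 3632 and 1622 in controls at 7.5 hpf, and 30 and 42 in controls at 5 hpf, a log2 change of 6.06 ± 0.33 in controls (limma adjusted p = 5.1e-06). The Oct4-related pou5f3.2.S had 5402 and 4183 in CHX embryos, 12726 and 5672 in controls at 7.5 hpf, and 287 and 291 in controls at 5 hpf. Its log2 change between CHX and control embryos, -0.84 ± 0.29, was not called (limma adjusted p = 0.46), and was called without control 7.5 hpf replicate 2 (-1.42, 0.043). With 1 library left out the counts of this list lay between 3 and 11 in CHX embryos and between 6 and 10 in controls, with 3 without CHX replicate 1, 5 without CHX replicate 2 and 6 in controls without any 1 of control 7.5 hpf replicate 1, CHX replicate 1 and CHX replicate 2.

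Beside the ventx medians of 5.85 in CHX embryos and 5.94 in controls over 5 hpf, the median log2 change over the genes of a list not at 0 in both 5 hpf libraries was 2.81 in CHX embryos and 1.74 in controls for 8 BMP ligands. It was -0.13 in CHX embryos and -0.16 in controls for 22 receptors and Smads, and 0.42 in CHX embryos and 0.26 in controls for 13 feedback genes. For 13 BMP target factors it was 5.87 in CHX embryos and 3.67 in controls, and for 12 organizer genes 4.15 and 4.70. For 14 Pou5f3, Sox, Foxh1 and Foxd3 genes it was 2.85 and 2.98. The gaps depended on leaving out the genes at 0. With those kept, the medians were 5.92 and 6.33 for the 10 ventx genes and 3.32 and 3.23 for 10 ligands. They were 7.34 and 3.73 for 26 BMP target factors, 5.56 and 5.06 for 27 organizer genes, and 4.09 and 3.69 for 16 Pou5f3, Sox, Foxh1 and Foxd3 genes. Between CHX and control embryos at 7.5 hpf the median was 0.19 over receptors and Smads and 0.24 over feedback genes. Without control 7.5 hpf replicate 1 it was 0.06 over receptors and Smads and 0.66 over feedback genes, without control 7.5 hpf replicate 2 it was 0.35 and 0.06, without CHX replicate 1 it was 0.15 and 0.09, and without CHX replicate 2 it was 0.19 and 0.39.

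Genes with a profile like that of the family were sought by the root mean square difference between the centred log2 values of a gene and the mean centred profile of the ventx genes over the 6 libraries. Of 12146 named genes with a mean value of at least 50, the closest were hunk.S at 0.25, plk2.L at 0.28, gatm.L at 0.34 and foxi4.2.S, akap12.S and mafb.L at 0.35 each, in log2 units. The ventx genes themselves lay at 0.63 to 1.97 from their own mean profile. foxi4.2.S, a forkhead gene, had 3966 and 2857 in CHX embryos, 5607 and 1974 in controls at 7.5 hpf, and 66 and 19 in controls at 5 hpf. The order depended on the low 5 hpf values: with 0.5 in place of 1 added before logs 1 of these 6 genes was still among the 6 closest, and with 5 added 0 were.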

How the data were processed

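RNA captured by its EU label was analysed in 6 libraries, 2 for each of CHX embryos at 7.5 hpf, controls at 7.5 hpf and controls at 5 hpf. Per the submitters' processing notes, transcripts were quantified with Salmon 0.12.0 and normalized with DESeq2. For the genome build, the annotation and the use of strand no statement was found in the labels. The authors deposited whole numbers per gene that behave as normalized values rounded by size factor, so they were treated as a score and not as raw counts, and no count test was run.

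A pseudocount of 1 was added, log2 was taken, and limma 3.58.1 (R 4.3.3) fitted 1 linear model of the 3 groups with an intensity trend (3 residual and 7.4 prior degrees of freedom). Genes with a mean value of at least 10 over the 6 libraries entered, which was 19738 of 50489. Tests were two-sided, p-values were adjusted by Benjamini-Hochberg over all genes tested, and a gene was called at an adjusted p under 0.05. From each list, genes could be named if they were among the 4 best called by adjusted p in a comparison or had the highest mean value. Not all of these are printed. Outside this rule, gata3.S and fst.L were named as examples of the filter. Likewise foxi1.L, dlx6.L, chrd.1.L and foxa4.S were named as the other copies of named genes. The wnt8a copies and the genes with more than 1 row were named to describe the lists. The members, the lists and the tests were chosen with earlier results of these data known. Names and gene order came from RefSeq (Xenopus_laevis_v10.1), in which all 10 ventx names matched. Reads that fit both an L and an S copy, or neighbouring ventx genes, may be divided between them by the quantification. Alternatives were other pseudocounts, filters and scalings, fits of 2 groups, the replicate number as a block, each library left out, and L and S copies summed. Figures were drawn with Python 3.11.15, pandas 2.3.3, numpy 2.4.6 and matplotlib 3.10.9.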

Additional observations from a re-analysis of the deposited data

How the results depend on the processing

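The calls of the ventx genes against controls at 5 hpf kept their direction in every alternative run. With no filter on low values 9 of 10 were called in CHX embryos and 9 of 10 in controls at 7.5 hpf, ventx3.2.L being lost (limma adjusted p = 0.0944 and 0.0691). With 1 library left out at a time the count lay between 5 and 10 in CHX embryos over 5 hpf, between 8 and 10 in controls at 7.5 hpf over 5 hpf, and was 0 between CHX and control embryos at 7.5 hpf. Depth limits the 5 hpf values, where a ventx gene had at most 48.7 estimated reads. The counts over all genes moved more. Between CHX and control embryos at 7.5 hpf, 105 genes were called, 225 with a pseudocount of 5, 0 with no filter, and 0 to 101 with 1 library left out. Of those, 38 were higher and 67 lower, and the split was 112 and 113 with a pseudocount of 5 and 61 and 33 with these 2 groups alone. In controls at 7.5 hpf over 5 hpf, 1256 genes were called, 665 with no filter, 416 with the 2 groups alone and 521 to 1849 with 1 library left out. In CHX embryos over 5 hpf, 1157 were called, 671 with no filter and 213 to 1340 with 1 library left out. Dividing by library totals moved the median of all genes in the control comparison to -0.11. The replicate numbers were not shown to pair the libraries (correlations of deviations of 0.121, 0.0063 and -0.0251), and a fit that took replicate number as a block called 10, 0 and 10 ventx genes as before, and 174 genes in all between CHX and control embryos at 7.5 hpf.

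Some estimates that were not called changed sign with 1 library left out, and others kept it. Between CHX and control embryos at 7.5 hpf the log2 change stayed above 0 for ventx1.1.L (0.03 to 1.21), ventx1.2.L (0.28 to 1.35) and ventx1.2.S (0.09 to 0.80). It stayed below 0 for ventx3.2.S (-1.54 to -0.38). The estimates that follow changed sign. With 1 library left out, the log2 change between CHX and control embryos at 7.5 hpf lay between -1.06 and 0.24 for ventx1.1.S, -0.52 and 0.72 for ventx2.1.L, -0.54 and 1.01 for ventx2.1.S, -0.35 and 0.76 for ventx2.2.L, -0.11 and 1.17 for ventx2.2.S, -1.23 and 0.15 for ventx3.2.L, -0.26 and 0.82 for bmp4.S, and -0.16 and 1.16 for not.S. For the flanking gene kndc1.L it lay between -0.37 and 0.69, and for XB5817455.S between -0.29 and 0.45. For XB5817455.S it lay between -0.40 and 0.099 in CHX embryos over 5 hpf and between -0.59 and 0.14 in controls at 7.5 hpf over 5 hpf. For smad7.L in CHX embryos over 5 hpf it lay between -0.31 and 0.0060. The log2 ratio of L to S copies changed between -1.26 and 1.28 for ventx1.1 and between -0.0020 and 4.2 for ventx3.2 in CHX embryos over 5 hpf, between -2.29 and 0.25 for ventx1.1 and between -0.42 and 3.78 for ventx3.2 in controls at 7.5 hpf over 5 hpf, and between -0.29 and 0.024 for ventx2.1 in CHX over control embryos at 7.5 hpf. With a pseudocount of 0.5 the ventx1.1 ratio changed by -0.47 in CHX embryos over 5 hpf, and with 5 by 0.0035 in controls at 7.5 hpf over 5 hpf. The cause was not tested.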
